A study of Mus musculus with 6 samples.

Results

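Basic helix-loop-helix (bHLH) transcription factors were followed as a family in the hippocampus of mice that lost 2 histone H3 lysine 4 demethylases as adults. The family was taken as 54 genes listed by symbol, comprising lineage factors, ID proteins and HES and HEY repressors, and all 54 were found among the 48795 gene identifiers of the count table. Of these, 31 had enough counts to be tested, 14 had a few counts and 9 had 0 counts in every library. The libraries came from 3 wild-type (WT) and 3 double knockout (KO) samples of polyadenylated RNA from whole hippocampus. KO mice carried floxed alleles of Kdm1a and Kdm5c and the recombinase CreERT2, which the CamKIIα promoter restricts to principal neurons of the forebrain and which acts only after tamoxifen (TMX). Both groups received TMX, and the mice were on a C57BL/6J background and 2 to 3 months old at that time. Glia, vessels and interneurons lie outside the cells this promoter targets, and the labels do not say whether WT mice carried floxed alleles or the recombinase. No group lacked only 1 of the enzymes, and no label ties each library to its own animal. The p-values therefore describe the spread among these samples, which may be technical.

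The bHLH domain pairs 2 proteins and places a basic region of each on the E-box, a short DNA motif. Widely expressed E proteins serve as common partners for lineage factors such as MyoD or the neurogenins, which drive cells towards muscle, nerve or other fates in the embryo. ID proteins lack the basic region and hold E proteins off DNA, and HES and HEY proteins, many of them switched on by Notch, repress target genes with Groucho/TLE corepressors. In the adult hippocampus the family acts mainly in stem cell maintenance and glia, and in a few members that mark mature neurons, whereas most embryonic lineage factors are silent.

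Promoter sequences are shown for 4 members, because 7 members rose at least 2-fold in KO and RefSeq promoters (build GRCm38.p6, 250 bases before to 50 after the start) were matched for these 4 of the 7. Mesp1 lies at chr7:79793541-79793840 on the minus strand and Mesp2 at chr7:79810477-79810776 on the plus strand. Nhlh1 lies at chr1:172057547-172057846 on the minus strand and Hes7 at chr11:69120203-69120502 on the plus strand. Capitals mark each E-box, spelled CANNTG, which reads the same on both strands, and no marked E-box overlapped another.
Mesp1: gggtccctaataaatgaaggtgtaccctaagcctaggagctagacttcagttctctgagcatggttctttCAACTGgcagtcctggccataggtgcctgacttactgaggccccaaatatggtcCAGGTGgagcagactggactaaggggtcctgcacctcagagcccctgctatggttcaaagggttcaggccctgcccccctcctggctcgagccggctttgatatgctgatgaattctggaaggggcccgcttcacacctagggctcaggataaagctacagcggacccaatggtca
Mesp2: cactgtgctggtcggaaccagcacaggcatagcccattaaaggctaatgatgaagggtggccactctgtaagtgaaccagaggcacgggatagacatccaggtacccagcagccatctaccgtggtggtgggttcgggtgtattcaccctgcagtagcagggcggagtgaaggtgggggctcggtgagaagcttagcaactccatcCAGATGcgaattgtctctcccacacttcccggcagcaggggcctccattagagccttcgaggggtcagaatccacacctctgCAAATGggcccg
Nhlh1: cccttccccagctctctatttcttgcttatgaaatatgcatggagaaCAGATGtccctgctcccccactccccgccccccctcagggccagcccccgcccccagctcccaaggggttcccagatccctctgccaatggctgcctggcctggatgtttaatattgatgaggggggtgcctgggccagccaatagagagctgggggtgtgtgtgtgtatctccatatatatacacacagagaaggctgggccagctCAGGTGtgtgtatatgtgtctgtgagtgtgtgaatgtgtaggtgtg
Hes7: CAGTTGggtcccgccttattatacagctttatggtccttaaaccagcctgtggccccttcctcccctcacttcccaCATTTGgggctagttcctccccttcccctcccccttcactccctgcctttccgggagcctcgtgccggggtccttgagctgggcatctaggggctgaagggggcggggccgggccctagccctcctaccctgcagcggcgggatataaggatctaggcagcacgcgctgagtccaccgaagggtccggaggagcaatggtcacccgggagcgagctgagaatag
Each of the 4 windows held 2 E-boxes. An E-box of this form was present in 72.3% of all 32851 promoters in the RefSeq table, in 32 of 44 promoters of 39 members (72.7%) and in 7 of 9 promoters of members that rose (77.8%). The form CAGCTG stood in 16.3% of all promoters and 20.5% of member promoters, and CACGTG in 7.15% and 2.27%. The N-box bound by HES proteins, CACNAG on either strand, stood in 42.5% of all promoters and 38.6% of member promoters. None of these shares was tested, and a match is a stretch of letters and not a measured binding site. CpG pairs numbered 4 in the Mesp1 window, 10 in Mesp2, 2 in Nhlh1 and 14 in Hes7. The median was 10 over the 9 promoters of members that rose and 24 over 15 promoters of tested members that did not pass, against 7 over all promoters. Hes5 had 41, the most among the members that rose.

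Total gene counts were 19309576 to 19700249 per library. Kdm1a read 1476, 1466 and 1329 counts in WT and 746, 730 and 789 in KO. All KO values lay below all WT values (log2 fold change -0.93, SE 0.0651, adjusted p = 4.32e-07). Kdm5c read 1537, 1586 and 1484 counts in WT and 1457, 1400 and 1288 in KO, again without overlap, and did not pass the test (log2 fold change -0.17, SE 0.0640, adjusted p = 0.143). These are counts over whole genes, and the deleted exons were not counted apart. Of 10 markers of hippocampal principal neurons all were tested, and their summed level was 6781 to 7300 CPM (counts scaled to a library total of 1000000) in WT and 6513 to 7171 CPM in KO. Most of this sum was Camk2a (means of 4785 CPM in WT and 4521 CPM in KO) and Slc17a7 (1336 and 1318 CPM). The sum therefore says little about the other markers. Among the 10 markers C1ql2 (log2 fold change 0.46) and Spink8 (1.08) rose.

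In KO 12 bHLH genes were higher than in WT, from embryonic mesoderm and muscle factors to ID and HES genes. Of the 31 tested members 12 rose and 0 fell, where a gene is said to rise or fall if its adjusted p is under 0.05 in the edgeR quasi-likelihood test, Benjamini-Hochberg adjusted across the 16861 genes tested. Over all those genes 5.90% rose, 1.05% fell and 6.95% changed in either direction. The 12 were Tcf24, Mesp1, Myod1, Mesp2, Tcf15, Hes7, Nhlh1, Neurog2, Hes5, Bhlha9, Id3 and Id2, in order of fold. Beside the 0 falls at that threshold, 1 tested member was lower at an unadjusted p under 0.05 (Hey2), DESeq2 called 0 falls and the fit with no filter on low counts called 1, again Hey2 (adjusted p = 0.0467). A positive log2 fold change was found in 23 of the 31, with a median of 0.31, against 48.2% and a median of -0.01 over all tested genes. Myod1, Tcf24, Mesp1 and Mesp2 had too few counts in WT to pass the filter on low counts and entered the test through KO, so these counts describe the tested members and cannot stand for the 54. Among the other 27 tested members 8 rose, against 5.49% of all tested genes with enough counts in WT alone.

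Members were also counted by level, a mean over all libraries that a rise itself raises. Among genes with a mean over all libraries under 5 CPM 9 of 18 tested members rose, against 6.61% of all such genes. Between 5 and 20 CPM 0 of 4 rose against 9.19% (edgeR; DESeq2 also gave 0, and at an unadjusted p under 0.05 Hes6 was higher), and at 20 CPM or more 3 of 9 rose against 3.96%. Without the 4 members that entered the test through KO, these counts were 6 of 15, 0 of 4 and 2 of 8, so Tcf24 is in the highest class through its KO level. Every KO library lay above every WT library in 14 of the 31 members, against 14.0% of all tested genes, and below in 2, Hey2 and Msc, against 11.2%. The 14 include the 4 members that entered the test through KO, whose separation the filter favoured. The share of all tested genes was likewise not limited to genes with enough counts in WT.

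**Figure D1:**
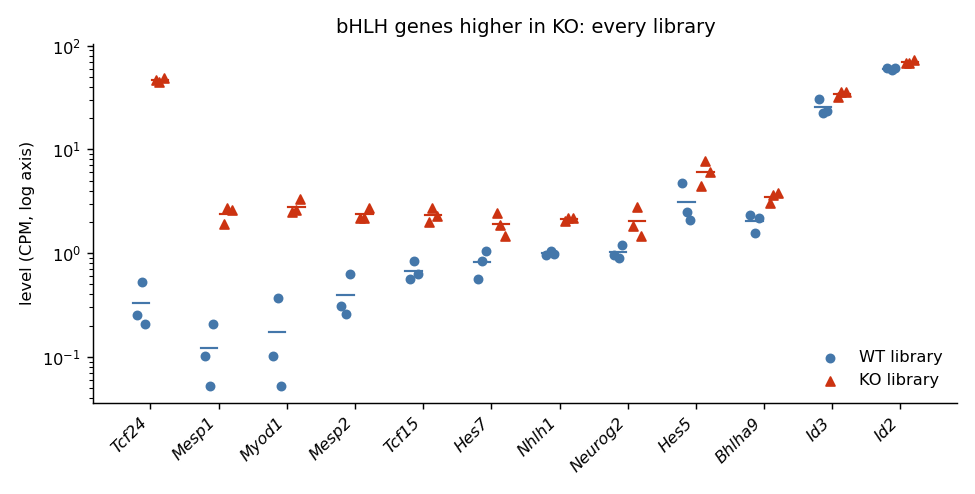
Level of the 12 bHLH genes that rose, in CPM on a log axis, for each WT library (blue circles) and KO library (red triangles), with horizontal bars at the group means. Tcf24 stands apart with a KO mean of 46.8 CPM from 0.328 CPM in WT, and Hes5 is the only gene of the 12 whose groups overlap.

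Of the 12 factors of mesoderm, connective tissue and organs 8 were tested and 4 rose, against 5.90% of all tested genes. Of these 4, Tcf24, Mesp1 and Mesp2 entered the test through KO, so the filter on low counts partly set this count. Tcf24 is a little studied bHLH gene (chromosome 1, 9960163 to 9967932, minus strand, GRCm38). It read 5, 10 and 4 counts in the WT libraries and 917, 865 and 965 counts in the KO libraries. No WT library came near any KO library. Its log2 fold change was 7.13 (SE 0.167, adjusted p = 1.40e-11), the largest among the 31 tested members. No other member came near its KO level among those that were scarce in WT.

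Mesp1 and Mesp2, which mark nascent mesoderm and the boundaries of forming somites in the mouse embryo, are neighbours on chromosome 7 (79792241 to 79793788, minus strand, and 79810727 to 79813439, plus strand). Their annotated ends lie 16.9 kb apart, and they are transcribed away from each other. Mesp1 read 2, 1 and 4 counts in WT and 37, 53 and 51 in KO (log2 fold change 4.24, SE 0.391, adjusted p = 6.71e-06). Mesp2 read 6, 5 and 12 counts in WT and 43, 42 and 54 in KO (2.56, SE 0.310, adjusted p = 9.42e-05). The groups were far apart in both genes, and their KO means were alike at 2.40 ± 0.452 and 2.37 ± 0.324 CPM (mean ± SD, n = 3).

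Tcf15, also called paraxis, acts in somites and paraxial mesoderm (chromosome 2, 152143561 to 152149097, plus strand). It read 11, 16 and 12 counts in WT and 39, 53 and 45 in KO, with a clear gap between the groups (log2 fold change 1.78, SE 0.257, adjusted p = 4.57e-04). The other tested members of this class did not pass. Twist1 and Twist2, factors of mesenchyme, read 14 to 18 and 11 to 14 counts in WT and 17 to 34 and 14 to 22 in KO (log2 fold changes 0.65 and 0.46, adjusted p = 0.247 and 0.446). Msc (musculin) read 30, 30 and 31 counts in WT and 24, 22 and 23 in KO (-0.42, adjusted p = 0.326). Scx, a factor of tendons, read 23 to 33 counts in WT and 20 to 25 in KO (-0.26, adjusted p = 0.609). In KO, Twist1 and the markers of fibroblasts and meninges were both lowest in library 2. Of these 9 markers 8 were tested. Their summed level was 105 to 123 CPM in WT and 101 to 197 CPM in KO. In KO libraries 1, 2 and 3 it was 197, 101 and 179 CPM, and Twist1 read 27, 17 and 34 counts. In WT libraries 1, 2 and 3 it was 121, 105 and 123 CPM, and Twist1 read 14, 17 and 18 counts. Among the KO libraries Twist2 (17, 22 and 14 counts), Scx, Mesp1 and Tcf15 were highest in library 2 in CPM. Tcf24, Mesp2 and Msc were lowest there. Of the 9, Foxc1 rose (adjusted p = 0.0215; 0.0716, 0.0584 and 0.130 without WT replicate 1, WT replicate 2 and KO replicate 3), and 0 were at 0 in all libraries. The summed level of 7 choroid plexus and ependyma markers varied likewise, at 133, 72.7 and 132 CPM in KO libraries 1, 2 and 3 and 40.5 to 57.4 CPM in WT, and 1 of the 7 rose, Kl (log2 fold change 1.42, adjusted p = 2.77e-08). The part of these cells in the values of Twist1 and the other mesoderm factors was not tested. In bulk tissue fewer cells of a type and less RNA per cell cannot be told apart.

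Of the 4 myogenic regulatory factors, which commit cells to skeletal muscle, only Myod1 was expressed enough to be tested, and it rose. Myod1 (chromosome 7, 46376474 to 46379099, plus strand) encodes the muscle determination factor MyoD. It read 2, 7 and 1 counts in WT and 49, 50 and 65 in KO. The groups were far apart, and the log2 fold change was 3.97 (SE 0.394, adjusted p = 1.39e-05). Myog (myogenin), which acts after MyoD in differentiation, read 1, 4 and 2 counts in WT and 2, 5 and 0 in KO. Myf5 had 0 counts in every library and Myf6 had 1, in KO replicate 3. Among 21 muscle genes that myogenic factors are known to activate, 11 were tested and 1 rose, Acta1, the skeletal muscle actin. It read 132, 110 and 98 counts in WT and 212, 278 and 328 in KO (log2 fold change 1.25, SE 0.159, adjusted p = 1.57e-04). By edgeR 0 of the 11 fell, also at an unadjusted p under 0.05 and in DESeq2, while 5 were higher at an unadjusted p under 0.05. The list's median log2 fold change was 0.48 and 10 of its 11 tested genes were above 0, against -0.01 and 48.2% over all tested genes. Over all those genes 5.90% rose, so 1 rise among so few genes is no result about the list. The share of all genes at an unadjusted p under 0.05 was not taken, and the part of Myod1 in these values was not tested. The muscle creatine kinase gene Ckm read 1, 1 and 2 counts in WT and 2, 1 and 1 in KO. The acetylcholine receptor gene Chrnd, specific to muscle, read 0 in all libraries. Not all genes of the list were silent. The receptor gene Chrna1 read 36, 29 and 42 counts in WT and 63, 52 and 47 in KO (0.58, adjusted p = 0.128). Des read 28, 25 and 44 against 49, 49 and 75 (0.81, adjusted p = 0.0761). It passed with no filter (0.0274), with a replicate block (0.0289) and without WT replicate 3 (0.0183).

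Of the 11 neural lineage factors 4 were tested and 2 rose, Nhlh1 and Neurog2. Nhlh1, active in newly formed neurons, read 19, 20 and 19 counts in WT and 40, 42 and 43 in KO (chromosome 1, 172052292 to 172057573, minus strand). The groups were well separated, and the log2 fold change was 1.08 (SE 0.216, adjusted p = 0.00607). Its paralog Nhlh2 read 49, 24 and 40 counts in WT and 58, 73 and 66 in KO. The Nhlh2 groups did not overlap either, but the gene did not pass (log2 fold change 0.78, SE 0.228, adjusted p = 0.0578). It passed without WT replicate 1 (0.0372), with no filter on low counts (0.0206) and with scaling by library size alone (0.0492).

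Neurog2, a proneural factor of cortical progenitors, read 19, 17 and 23 counts in WT and 36, 54 and 29 in KO. Every KO library was above every WT library, with a wide spread in KO, and the gene passed narrowly (log2 fold change 0.99, SE 0.280, adjusted p = 0.0495). Leaving out WT replicate 1 (adjusted p = 0.134), WT replicate 2 (0.145), KO replicate 1 (0.0832) or KO replicate 2 (0.229) ended the call. It was also lost with RLE scaling (0.0501), DESeq2 (0.0989) and limma-voom (0.0721). Bhlhe22, a repressor present in mature excitatory neurons, read 1760, 1859 and 1796 counts in WT and 1773, 2119 and 1816 in KO. The groups overlapped and the interval of its log2 fold change ran from -0.10 to 0.22.

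The remaining neural factors were at or near silence. Neurog1 read 1 to 6 counts per WT library and 3 to 6 per KO library, Neurod4 4 to 13 and 2 to 6, and Atoh7 2 to 3 and 2 to 4. Ferd3l had a single count, in KO replicate 1, and Neurog3, Atoh1 and Olig3 had 0 counts. Of 12 genes downstream of proneural factors 6 were tested and 1 rose, Rnd2, a small GTPase that Neurog2 activates in the mouse cortex (57.3 ± 7.67 to 87.2 ± 2.10 CPM, log2 fold change 0.61, SE 0.0826, adjusted p = 2.74e-04), with a list median of -0.13. Ebf2 of that list was below the filter (8, 11 and 4 counts against 3, 1 and 0) and was lower in the fit with no filter (adjusted p = 0.0436). Of 11 markers of progenitors and immature neurons 9 were tested and Sox4 (0.91, adjusted p = 0.00221) and Sox11 (0.37, adjusted p = 0.0489) rose. Leaving out WT replicate 1, WT replicate 3 or any KO library ended the call of Sox11 (adjusted p = 0.137, 0.101, 0.138, 0.144 and 0.105) and with RLE scaling (0.0505). The summed marker level was 120 to 130 CPM in WT and 133 to 151 CPM in KO, the proliferation markers Mki67 (51, 54 and 41 against 52, 55 and 42 counts) and Top2a (19, 33 and 29 against 24, 20 and 19 counts) did not pass, and the part of these cells in the values of Neurog2 and Nhlh1 was not tested.

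**Figure D2:**
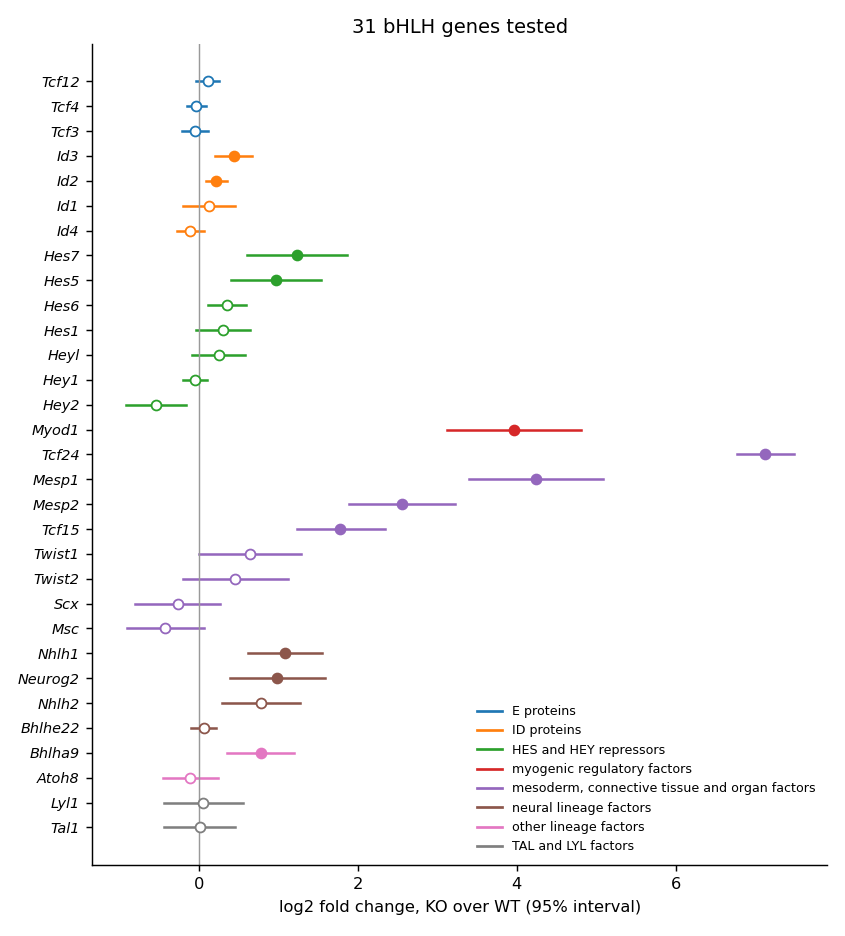
Log2 fold change of KO over WT for the 31 tested bHLH genes, with 95% intervals from the fit, coloured by class, filled where the gene rose and open where it did not pass. Tcf24, Mesp1, Myod1, Mesp2 and Tcf15 lie beyond 1.5, while the E proteins lie within 0.11 of 0.

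The E proteins, the common dimer partners, did not pass, and their intervals were narrow (0 of 3 by edgeR, 0 by DESeq2 and 0 at an unadjusted p under 0.05). Tcf4, the most abundant of them in CPM, read 9000, 9316 and 8311 counts in WT and 8884, 8607 and 8906 in KO. Tcf3 (E2A) read 546, 592 and 587 in WT and 552, 553 and 584 in KO, and Tcf12 (HEB) read 1275, 1302 and 1166 against 1402, 1388 and 1304. The groups overlapped in all 3. Their log2 fold changes were -0.03 (95% interval -0.15 to 0.09), -0.05 (-0.21 to 0.11) and 0.11 (-0.03 to 0.25), so a change beyond about 1.2-fold lay outside the intervals.

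Of the 4 ID proteins, the dominant-negative partners of E proteins, 2 rose by small amounts. Id3 read 592, 428 and 448 counts in WT and 625, 692 and 698 in KO. WT replicate 1 came close to the KO libraries and the other two WT libraries lay well below (log2 fold change 0.44, SE 0.105, adjusted p = 0.0202). Id2 read 1179, 1108 and 1177 in WT and 1342, 1322 and 1421 in KO, a small gap with no overlap (0.22, SE 0.0589, adjusted p = 0.0385). Id1 (180, 150 and 238 against 202, 189 and 239 counts) and Id4 (756, 745 and 856 against 785, 761 and 672 counts) overlapped between groups, with log2 fold changes of 0.13 and -0.11. The calls of Id3 and Id2 were each lost on leaving out 1 of several libraries. Over all alternatives their log2 fold changes stayed at 0.36 to 0.59 and at 0.20 to 0.24. For Id3, leaving out KO replicate 2 (adjusted p = 0.0786), KO replicate 3 (0.0996) or WT replicate 2 (0.0747) ended the call. That of Id2 was lost without any library but WT replicate 3 (0.0822 to 0.207), in DESeq2 (0.0533) and with no filter (0.0557). Neither passed the test against a 1.2-fold change (adjusted p = 0.307 and 1).

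Of the 8 HES and HEY repressors 2 rose, Hes7 and Hes5. Hes7, the oscillating repressor of the somite segmentation clock in the mouse, read 11, 16 and 20 counts in WT and 48, 36 and 29 in KO (chromosome 11, 69120404 to 69124055, plus strand). The groups did not overlap (log2 fold change 1.24, SE 0.291, adjusted p = 0.0178), and the call was lost without WT replicate 1 (0.0841), WT replicate 2 (0.0552) or KO replicate 1 (0.0933). A gene annotated on the opposite strand across Hes7 read 18, 20 and 27 counts in WT and 22, 26 and 35 in KO. Others overlapped Hes5 (1, 0 and 0 against 5, 7 and 1 counts) and Tcf24 (0 in WT against 3, 1 and 0 counts). Without the strand setting of the counting, reads of these pairs cannot be told apart. Hes5, the Notch target that maintains neural stem cells, read 92, 47 and 40 counts in WT and 87, 148 and 120 in KO. KO replicate 1 lay below WT replicate 1, the only overlap among the members that rose (log2 fold change 0.97, SE 0.266, adjusted p = 0.0422). Its call was lost without WT replicate 2 (0.147), WT replicate 3 (0.0914), KO replicate 2 (0.173) or KO replicate 3 (0.128).

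Hey2, a Notch target of vessels and heart, had the lowest log2 fold change of the 31 tested members. It read 110, 102 and 135 counts in WT and 83, 96 and 63 in KO, without overlap (log2 fold change -0.54, SE 0.176, adjusted p = 0.0934). Hes6, a HES family member that promotes neuronal differentiation, read 221, 184 and 238 in WT and 275, 292 and 269 in KO, also without overlap (0.36, SE 0.109, adjusted p = 0.0690, and 0.0250 without WT replicate 3). Hes1 (0.31, adjusted p = 0.296), Heyl (0.25, adjusted p = 0.395) and Hey1 (-0.05, 95% interval -0.20 to 0.10) did not pass either. Hes3 read 0, 0 and 2 counts in WT and 2, 2 and 3 in KO, too few to test.

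The ID, HES and HEY genes are also active in cells that keep both demethylases. Of 10 astrocyte markers, 9 had a log2 fold change above 0 and 1 rose, Gfap (339 ± 21.7 to 450 ± 23.1 CPM, log2 fold change 0.41, SE 0.0621, adjusted p = 7.93e-04). The summed astrocyte level was 4801 to 5110 CPM in WT and 5312 to 5393 CPM in KO, without overlap. Of 10 endothelial markers 0 passed (summed level 268 to 285 CPM in WT and 284 to 309 CPM in KO) by edgeR and 0 by DESeq2, with 1 higher at an unadjusted p under 0.05, Emcn (0.40, adjusted p = 0.0902), followed by Cdh5 (0.22, adjusted p = 0.284). Of 9 mural cell markers 1 rose, Pdgfrb (0.37, adjusted p = 0.0337), which lost its call on leaving out any 1 library except KO replicate 2 (0.0518 to 0.201). The mural sum was 259 to 278 CPM in WT and 261 to 342 CPM in KO. All 8 oligodendrocyte markers had a log2 fold change above 0, with a median of 0.23, and 1 rose, Mbp (0.25, adjusted p = 0.0126, but 0.0564 and 0.107 on leaving out KO replicates 2 and 3). Their sum was 5033 to 5457 CPM in WT and 5601 to 6297 CPM in KO, and 7 were higher at an unadjusted p under 0.05. All 10 microglial markers were also above 0, with a median of 0.21 and sums of 373 to 428 CPM in WT and 428 to 487 CPM in KO. By edgeR and by DESeq2 0 of these passed, and 7 were higher at an unadjusted p under 0.05, led by Cx3cr1 (0.24, adjusted p = 0.0610). The share of all tested genes at that unadjusted p was not taken, so these marker counts have no background beside them. Medians were 0.14 for astrocytes, 0.14 for endothelium and 0.23 for mural cells. Of 6 oligodendrocyte precursor markers 0 passed by edgeR or DESeq2, with a median of 0.12. Of 8 interneuron markers 0 passed by edgeR or DESeq2, 2 were above 0 and the median was -0.07. Vip had the smallest p of these (-0.23, adjusted p = 0.225). The log2 fold change of Id2 was 0.22, beside medians from -0.07 to 0.23. None of these markers was at 0 in all libraries, and their part in the values of Id2, Id3, Hes5 and Hey2 was not tested.

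Among the other lineage factors Bhlha9, a factor of the limb ridge, rose. It read 46, 30 and 42 counts in WT and 59, 71 and 75 in KO (log2 fold change 0.78, SE 0.198, adjusted p = 0.0289). The groups did not overlap, and the call ended on leaving out KO replicate 2 (0.0942), KO replicate 3 (0.129) or WT replicate 2 (0.106), and in DESeq2 (0.0614). Atoh8 read 61, 70 and 76 counts in WT and 63, 68 and 64 in KO, with no separation. Ascl2, Ascl4, Bhlha15 and Ptf1a were too low to test, with at most 11 counts in a library, and the oocyte factor Figla had 0 counts. Ptf1a, the pancreas and inhibitory neuron factor, had 1 count in each group. Its partner in the pancreas, Rbpjl, rose all the same from 33, 24 and 25 counts to 102, 80 and 113 (log2 fold change 1.82, SE 0.199, adjusted p = 3.45e-05). Of the 12 acinar genes in that list 4 were tested and 2 rose, the second being Rab26, a vesicle GTPase (0.30, adjusted p = 0.0220). The call of Rab26 was lost without any 1 library except WT replicate 3 (0.0585 to 0.108). Of the digestive enzyme genes, Cpa1, Cela2a, Ctrb1 and Cel had 0 to 2 counts in each group. Pnlip had 15 counts in WT and 18 in KO, and Cpb1 had 8 and 10. Cela1 read 42, 9 and 23 counts in WT and 52, 27 and 30 in KO and did not pass (log2 fold change 0.54, adjusted p = 0.493).

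The blood and endothelial factors did not pass (0 of 2 by edgeR, 0 by DESeq2 and 0 at an unadjusted p under 0.05). Tal1 read 55, 60 and 58 counts in WT and 79, 49 and 48 in KO, and Lyl1 43, 27 and 32 against 30, 39 and 38, with log2 fold changes of 0.01 (95% interval -0.44 to 0.45) and 0.05 (-0.44 to 0.55). Tal2 read 0 to 5 counts in WT and 1 to 6 in KO. Of the PAS-containing SIM factors, Sim1 had 0 counts and Sim2 read 1, 3 and 6 counts in WT and 7, 8 and 14 in KO. Sim2 was the only member below the filter whose groups did not overlap. Its ratio of counts per library size was 2.90 (exact binomial 95% interval 1.38 to 6.68, counting error only), and with no filter its adjusted p was 0.145.

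The 9 members with 0 counts were Myf5, Tcf21, Hand1, Hand2, Neurog3, Atoh1, Olig3, Figla and Sim1. Over the 116841416 counts of all libraries, 0 counts allow a level of up to 0.0257 CPM, at 3 counts. Within a single group the bound is 0.0513 CPM for WT and 0.0514 CPM for KO. They were therefore not detectable in either group at this depth. The 14 with a few counts never exceeded 14 in a library, and fitted with no filter 0 of them passed (edgeR; adjusted p from 0.145 for Sim2 to 0.996). Tcf23, a paralog of Tcf24, was among them, with 5, 5 and 9 counts in WT and 6, 13 and 7 in KO.

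Per kilobase of exon, Bhlhe22, Id2, Tcf4, Id3 and Hey1 were the 5 highest members in WT, with mean levels of 27.9, 24.5, 16.8, 14.1 and 13.5 CPM per kb. The same 5 were highest in KO, at 29.1, 28.5, 16.4, 19.2 and 13.1 CPM per kb. Tcf24 stood in place 37 of 54 in WT (0.0783 CPM per kb) and in place 6 in KO (11.2 CPM per kb), above every HES gene. Mesp1 moved from place 33 to 16 (0.0947 to 1.88 CPM per kb) and Myod1 from 34 to 17 (0.0931 to 1.5). The other members that rose stayed closer to their places, as Id3 from 4 to 3 and Hes5 from 12 to 13. These places describe levels and were not tested.

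**Figure D3:**
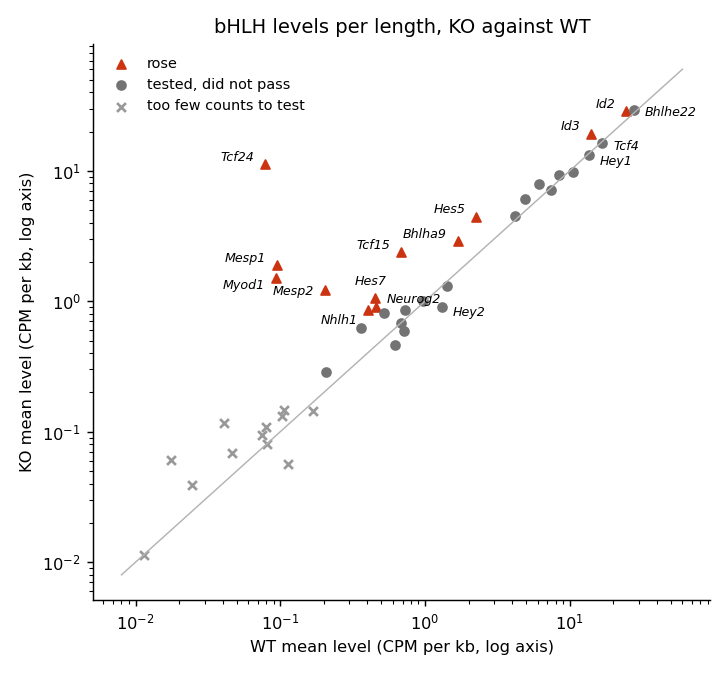
Mean level per kilobase of exon in KO against WT, both in CPM per kb on log axes, for bHLH genes with counts in both groups, with the line of equal level. Most genes follow the line over the whole range, and Tcf24 lies farthest above it, at 0.0783 in WT and 11.2 in KO.

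Apart from Mesp1 and Mesp2, which flank each other, genes flanking the members that rose did not pass the test. The nearest gene could lie far off, as Rnf144a did at 1204 kb from Id2. The 12 members had 22 distinct flanking protein-coding genes that were not members, of which 21 were tested and 0 passed in either direction by edgeR. Over all tested genes 6.95% passed, so 0 among so few genes is no result about the neighbours. At an unadjusted p under 0.05 there were 4, E2f2, Per1, Aloxe3 and Wdr93, and DESeq2 called 0. The share of all tested genes at that unadjusted p was not taken. Ppp1r42, 0.692 kb from Tcf24, had a log2 fold change of 0.22 (95% interval -0.53 to 0.98), and Mcmdc2 on the other side had -0.34 (-0.80 to 0.12). Next to the Mesp pair, Wdr93 had 1.03 (0.20 to 1.86, adjusted p = 0.144) and Anpep 0.40 (-0.07 to 0.87, adjusted p = 0.331, and 0.0421 without KO replicate 2). Kcnc1, 17.4 kb from Myod1, had -0.11 (-0.24 to 0.01), and Otog on the other side had too few counts to test. The remaining tested neighbours ran from -0.33 for Per1, beside Hes7 (adjusted p = 0.218, and 0.0411 with no filter), to 0.97 for Trarg1, beside Bhlha9 (adjusted p = 0.254). E2f2, beside Id3, had 0.66 (adjusted p = 0.0567, and 0.0481 with scaling by library size alone). Where a neighbour did not pass, the interval shows which sizes the data allow.

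**Figure D4:**
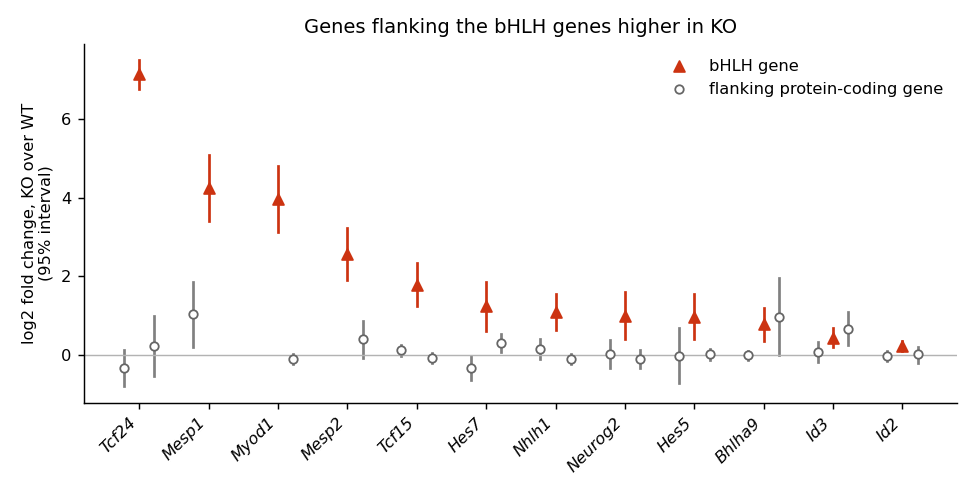
Log2 fold change of KO over WT with 95% intervals for the 12 bHLH genes that rose (red triangles) and the tested protein-coding genes flanking each (open circles, left for the side of lower coordinates). All 21 flanking genes, which leave out Mesp1 and Mesp2 as members, lie between -0.34 and 1.03.

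A list of 57 other bHLH genes had 49 tested and showed 6 rises and 2 falls with a median log2 fold change of 0.03. The 4 rises with the smallest adjusted p included 2 genes nearly silent in WT, Tcfl5 (6, 1 and 0 counts against 201, 225 and 216) and Bhlhe23 (1, 1 and 1 counts against 64, 90 and 74). The other two were Npas1 (310, 330 and 331 counts against 615, 586 and 643), a repressor of interneurons, and Mycl (722, 734 and 757 against 1113, 1179 and 1168), a MYC paralog. Srebf1 and Ahrr also rose and Neurod6 (log2 fold change -0.34) and Bhlhe40 (-0.32) fell, all 4 named after their values were seen. Single libraries ended the calls of Srebf1 (0.0576, 0.0915 and 0.0715 without WT replicate 2, KO replicate 2 and KO replicate 3), Ahrr (0.0622, 0.0531 and 0.0801 without WT replicate 1, KO replicate 1 and KO replicate 2) and Bhlhe40 (0.0508 and 0.0685 without KO replicates 1 and 3). Whether the 54 members and these 57 genes differ in their share of rises was not tested.

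Notch signalling acts upstream of HES and HEY genes. Of 30 such genes, all tested, 3 rose and 0 fell by edgeR and by DESeq2 (2 were lower at an unadjusted p under 0.05), with a median log2 fold change of 0.04. Dll3, a Notch ligand that acts with Hes7 and Mesp2 in somite formation in the mouse, rose from 19, 18 and 24 counts to 55, 61 and 49 (log2 fold change 1.41, SE 0.218, adjusted p = 8.62e-04). Nrarp, a feedback target of Notch, rose from 45, 54 and 63 counts to 79, 96 and 99 (0.74, adjusted p = 0.0201), and Dtx4 by 0.23 (adjusted p = 0.0301). Nrarp kept its call on leaving out KO replicate 1 or WT replicate 3 and lost it otherwise (0.0576 to 0.0978), and Dtx4 without any library but WT replicate 2 (0.0626 to 0.159). The list held 1 rise on leaving out KO replicate 2, KO replicate 3 or WT replicate 1. The receptor genes Notch1 and Notch2 had log2 fold changes of 0.21 and 0.20 (adjusted p = 0.0890 and 0.108), and the mediator Rbpj -0.08.

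Of 6 Groucho/TLE corepressors, the partners of HES proteins, 0 rose (edgeR, DESeq2 and unadjusted p under 0.05 alike) and Tle2 fell from 821, 1011 and 816 counts to 678, 700 and 661 (log2 fold change -0.40, SE 0.0888, adjusted p = 0.0134). That call was lost without KO replicate 1 (0.0508) or KO replicate 3 (0.0884), and the list's median was -0.09. Of 23 genes of BMP signalling, which induces ID genes, 1 rose and 0 fell (edgeR and DESeq2; 0 were lower at an unadjusted p under 0.05), with a median of 0.13. Bmp6 rose from 63, 59 and 60 counts to 135, 76 and 123 (0.85, SE 0.199, adjusted p = 0.0170). Its call held on leaving out WT replicate 3 or KO replicate 2 and was lost otherwise (0.0537 to 0.0889). In KO libraries 1, 2 and 3 Bmp6 stood at 6.88, 3.92 and 6.24 CPM, beside sums of 197, 101 and 179 CPM for fibroblast and meningeal markers and 133, 72.7 and 132 CPM for choroid plexus markers. Bmp7, which did not pass, read 171, 70 and 134 counts there, and the part of those cells was not tested.

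Across the alternatives the 12 rises fell into 2 sets. Tcf24, Mesp1, Myod1, Mesp2, Tcf15 and Nhlh1 passed in all 16 alternatives run, with log2 fold changes of 6.89 to 7.62, 3.90 to 4.84, 3.55 to 5.06, 2.33 to 3.03, 1.66 to 1.97 and 1.06 to 1.11. The other 6 lost their calls in 4 to 10 of the 16. Their log2 fold changes kept their sign in all 16, from 0.20 to 0.24 for Id2 and from 1.03 to 1.46 for Hes7.

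**Figure D5:**
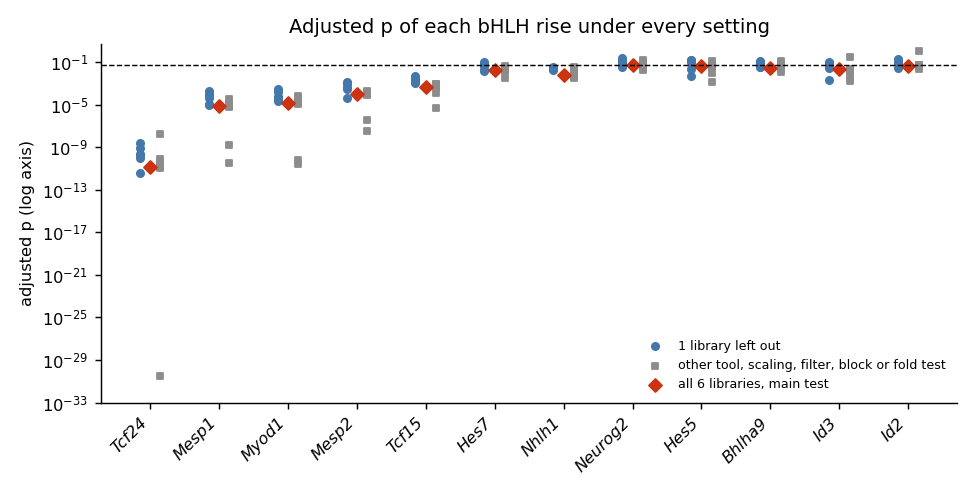
Adjusted p on a log axis for each bHLH gene that rose, in the main test (red diamonds), with 1 library left out (blue circles) and with another tool, scaling, filter, block or fold test (grey squares), with a dashed line at 0.05. Tcf24, Mesp1, Myod1, Mesp2, Tcf15 and Nhlh1 stay under the line throughout, and the DESeq2 value of Tcf24 (2.37e-92) lies below the plotted range.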

How the data were processed

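RNA with poly(A) tails from 3 WT and 3 KO hippocampal samples was sequenced. The table the authors deposited holds raw counts per gene and library. The submitters' processing notes name cutadapt 1.18, HISAT2, HTSeq 0.11.1 and the build GRCm38 (mm10). Annotation release, strand setting and HISAT2 version: not given in the sources used here. Symbols, coordinates and merged exon lengths came from GENCODE M21, which left 360 identifiers unmatched, and promoters from RefSeq (39 of 54 members matched).

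Genes were kept by filterByExpr (minimum count 10, minimum total 15) and scaled by TMM. The main test was edgeR's quasi-likelihood F test of KO against WT with no other covariate, and p-values were adjusted by Benjamini and Hochberg's method over 16861 genes. SE is the absolute log2 fold change divided by the square root of F. The fit was tested on simulated data. Every member is accounted for. In each gene list and in each marker list given in the text, genes past 0.05 were named, up to 4 with the smallest adjusted p (where none passed, up to 2 with the smallest p). Members, lists and tests were chosen with earlier results of these data known. Software was R 4.3.3, edgeR 4.0.16, limma 3.58.1 and DESeq2 1.42.0. Alternatives changed the scaling (RLE, or library size only), the tool (DESeq2, limma-voom), the filter (none, or 1 CPM in 3 libraries), the threshold (0.01, 0.1) or the null (a 1.2-fold change), added a replicate block, or left out 1 library.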

Additional observations from a re-analysis of the deposited data

How the results depend on the processing

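The number of members that rose, 12, was 7 in the test against a 1.2-fold change, 6 at a threshold of 0.01 and 14 at 0.1, and 6 to 12 on leaving out 1 library, being 6 without WT replicate 2 and 7 without KO replicate 2. It was 9 in DESeq2, 11 in limma-voom and with RLE scaling, 13 with library size alone and 12 with either other filter. With no filter the 12 were not the same genes, as Id2 lost its call (adjusted p = 0.0557) and Nhlh2 passed (0.0206). Falls numbered 0 except for 1, Hey2, with no filter and at a threshold of 0.1. They were 0 to 0 on leaving out 1 library. For all genes, rises numbered 536 in the 1.2-fold test and 614 at 0.01 instead of 995. Falls numbered 13 and 47 there instead of 177, 279 with no filter, 395 at 0.1, and 48 to 323 on leaving out 1 library. The causes were not tested. Replicate numbers showed no sign of pairing the libraries. Deviations of same-numbered libraries correlated at 0.005, -0.009 and -0.024, and some differently numbered ones more (up to 0.128). Correlations this near 0 over all genes cannot exclude that some libraries shared a batch. With a replicate block 10 members rose and 0 fell, and 960 genes rose and 149 fell. Id2 (adjusted p = 0.0572) and Neurog2 (0.0634) lost their calls with the block. Of 302 alternative values for tested members that had not passed, 8 passed, 3 of them only through the threshold of 0.1. Motif shares were lower in the 100 bases before the start, as a shorter window holds fewer matches in any case. There 34.4% of all promoters, 22.7% of member promoters and 1 of 9 promoters of members that rose (11.1%) held an E-box. Depth limits the members under the filter, which had 0 to 14 counts per library.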
